A study of Mus musculus with 16 samples.

Results

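The 10 gene models of the mouse annotation with satellite-like sequence described here, Gm10800, Gm10801, Gm10715, Gm10717, Gm10718, Gm10719, Gm10720, Gm10721, Gm10722 and Gm11168, were followed through every library of an RNA sequencing study of cultured juxtaglomerular (JG) cells. The 10 loci were taken by name from a count table of 46078 genes. They were selected on measured values, since Gm10800 differed by more than 50-fold between libraries, and the levels of Gm10800 and their spread are therefore given as a description with no test. All 10 passed the filter on low counts, which asked for a CPM (count scaled to a library total of 1000000) of at least 1 in at least 3 of the 4 libraries of any group and which 14897 genes passed.

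The cells were an engineered mouse JG line, Ren1c-YFP, in which the renin promoter drives yellow fluorescent protein. JG cells are the kidney cells that make and release renin. The cultures received either a control microRNA precursor with no mammalian counterpart or miR-106b, and RNA was taken 48 h later. Polyadenylated RNA (polyA) came from 4 control and 4 miR-106b cultures. RNA bound to Argonaute 2 (Ago2-IP), the protein that holds microRNAs in the silencing complex RISC, came from separate cultures, again 4 with control and 4 with miR-106b. The 16 libraries held 2579086 to 9459585 counts each. Ren1, the renin gene, had 0 counts in all 16 libraries, and the summed level of 11 JG and mural cell markers was 2444 to 5355 CPM. A list of 15 heart muscle genes (14 of them past the filter) summed to 22546 to 31551 CPM in polyA control, 43325 to 74232 CPM in polyA miR-106b and 96689 to 107526 CPM in the Ago2-IP libraries. The part of these marker levels in the results on the satellite-like loci was not tested, and in bulk RNA fewer cells of a type and less RNA per cell cannot be told apart.

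Mouse chromosomes carry long tandem arrays of an AT-rich repeat, the major satellite, in the heterochromatin beside their centromeres. This chromatin is kept compact by methylation of histone H3 and of DNA and by HP1 proteins. It is nevertheless transcribed at a low level, and its transcripts stay largely in the nucleus and take part in keeping the chromatin in place. Reads from such repeats can be placed at many positions of a genome, so a count on any single locus stands for a family of near-identical sequences. How reads that aligned to several places were treated is not given in the sources used here.

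The loci lay in 2 places of GRCm38. On chromosome 2, Gm10801 (98662237 to 98664083, plus strand) and Gm10800 (98666547 to 98667301, minus strand) were 2463 bases apart and pointed towards each other. On chromosome 9, the other 8 loci all lay on the plus strand within 37395 bases, from 3000922 to 3038316, with 197 to 6191 bases between neighbours. All 10 were annotated as protein coding, with first transcripts of 504 to 684 bases cut into 3 to 5 exons. The gaps between exons were short in places: of 84 gaps in all transcripts, 30 were under 10 bases, and Gm10800 had 4 gaps of 1 to 65 bases. The first transcripts held 34.3% to 36.0% G and C, against a median of 49.3% over 134529 annotated transcripts of at least 200 bases, of which 1.7% were at or below 36.0%. Compared with itself at every shift from 100 to 300 bases, a transcript matched best at 234 bases in 7 of the 8 chromosome 9 loci and at 237 bases in Gm11168, with 62.6% to 67.6% of bases equal. On chromosome 2 the best shift was 225 bases for Gm10800 (56.3%) and 231 bases for Gm10801 (52.7%).

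The longest run found in all 10 loci was 33 bases, shown in capitals below, and it occurred in 12 of 55450 annotated genes on either strand (0.0216%). The 12 were the 10 loci, Gm17535 on the same strand and Gm26870 on the opposite strand. Each line gives 234 bases of the first transcript (GENCODE M21), 5′ to 3′, from the start of that run. Gm10800 and Gm10717 are shown because they had the most counts on their chromosome, Gm10801 because it had the second most of the 10, and Gm10721 and Gm10719 because they were the chromosome 9 loci most alike to Gm10800 and Gm10717. The stretches of Gm10800 (chr2:98666757-98666990, minus strand), Gm10717 (chr9:3025710-3025943, plus strand) and Gm10719 (chr9:3020916-3021149, plus strand) lie within 1 exon, while those of Gm10801 (chr2:98662365-98663876, plus strand) and Gm10721 (chr9:3013434-3014134, plus strand) pass over a gap between exons.
Gm10800: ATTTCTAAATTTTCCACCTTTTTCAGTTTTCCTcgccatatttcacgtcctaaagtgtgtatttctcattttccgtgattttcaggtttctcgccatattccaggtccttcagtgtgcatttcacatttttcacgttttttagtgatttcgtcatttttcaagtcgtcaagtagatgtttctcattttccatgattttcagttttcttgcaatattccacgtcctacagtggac
Gm10721: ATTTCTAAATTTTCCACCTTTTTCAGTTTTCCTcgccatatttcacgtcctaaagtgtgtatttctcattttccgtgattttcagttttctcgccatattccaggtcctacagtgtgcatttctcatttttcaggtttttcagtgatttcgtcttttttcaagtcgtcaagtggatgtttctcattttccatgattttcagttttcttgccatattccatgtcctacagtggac
Gm10801: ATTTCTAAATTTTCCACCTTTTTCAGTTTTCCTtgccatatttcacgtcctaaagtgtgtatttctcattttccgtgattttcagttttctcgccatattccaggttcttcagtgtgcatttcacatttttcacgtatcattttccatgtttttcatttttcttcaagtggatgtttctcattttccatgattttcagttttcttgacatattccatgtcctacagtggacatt
Gm10717: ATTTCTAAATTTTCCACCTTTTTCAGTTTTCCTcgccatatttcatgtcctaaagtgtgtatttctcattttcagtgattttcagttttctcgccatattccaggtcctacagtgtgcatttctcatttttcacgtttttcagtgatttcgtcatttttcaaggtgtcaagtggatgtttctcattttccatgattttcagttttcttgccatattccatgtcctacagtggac
Gm10719: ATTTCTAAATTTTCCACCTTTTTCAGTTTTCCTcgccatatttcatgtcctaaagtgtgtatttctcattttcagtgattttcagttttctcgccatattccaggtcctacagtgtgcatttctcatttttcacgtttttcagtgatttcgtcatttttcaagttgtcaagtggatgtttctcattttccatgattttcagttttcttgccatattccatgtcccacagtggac

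Pairs of first transcripts were 88.7% to 97.4% identical (45 pairs, median 93.1%). The 28 pairs within chromosome 9 had a median of 95.2%, and the 16 pairs across the chromosomes a median of 91.1%. Gm10717 and Gm10719 were the closest pair at 97.4%, and Gm10800 was closest to Gm10721 at 93.3%. Cut into windows of 50 bases, the length of 1 read, 27.4% of the windows of Gm10800 and 17.1% of those of Gm10801 were also found in another gene. On chromosome 9 that share was lowest for Gm10717 (46.4%) and highest for Gm10720 (88.3%). Only annotated transcripts were searched, so copies elsewhere in the genome are not in these shares, which are lower limits.

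**Figure D1:**
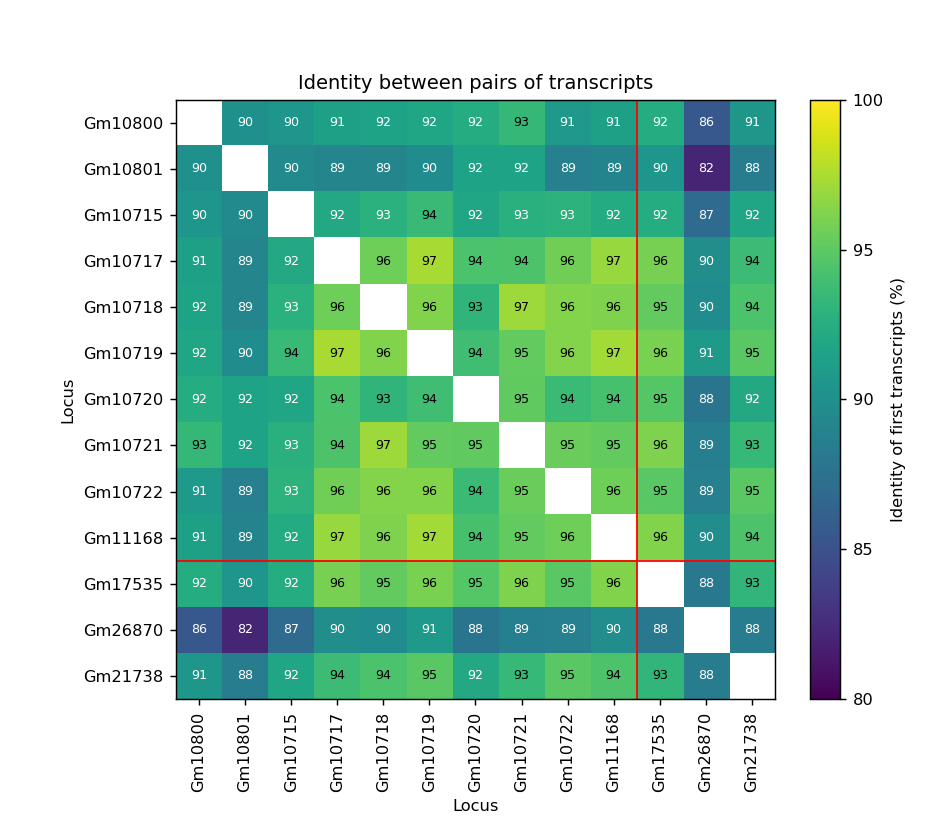
Percent identity between the first transcripts of each pair of loci, on a colour scale from 80% to 100%, for the 10 loci and, past the red lines, the 3 other genes that shared windows of 50 bases with them. Pairs within chromosome 9 were more alike (median 95.2%) than pairs across the chromosomes (median 91.1%), and Gm26870, which lies on the opposite strand, was the least alike.

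Gm10800 was the most abundant of the 10 in every library and held 73.5% to 78.7% of their summed counts. In polyA control it stood at 2616, 2442, 2475 and 3403 CPM in replicates 1 to 4. In polyA miR-106b it stood at 646, 2404, 7293 and 5633 CPM. These polyA libraries overlapped: 2 of the miR-106b libraries were above every control library and the other 2 below every one. In Ago2-IP control it stood at 1522, 225, 1647 and 11168 CPM, and in Ago2-IP miR-106b at 10644, 15036, 7705 and 1482 CPM. In Ago2-IP miR-106b 3 libraries were high, but replicate 4 of that group was at the level of the lower control libraries, and replicate 4 of the control group was at the level of the high miR-106b libraries. Both libraries were kept in the groups their labels give, and every Ago2-IP difference below depends on them. Other measures, chosen after their values were seen, went both ways. Mitochondrial genes kept to the labels and took 2.12% to 2.20% of counts in the 4 Ago2-IP control libraries (replicate 4 at 2.12%) and 2.22% to 2.39% in the 4 Ago2-IP miR-106b libraries (replicate 4 at 2.39%). Heart muscle markers did not: control replicate 4, at 100139 CPM, was in the range of the other miR-106b libraries (96689 to 103058 CPM) and miR-106b replicate 4, at 106042 CPM, in that of the other controls (103959 to 107526 CPM). JG and mural markers (5050 CPM in control replicate 4 and 5355 CPM in miR-106b replicate 4) and Malat1 (3462 and 1589 CPM) were likewise nearer to the other group. Whether the labels of these libraries are right was not tested.

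The highest library, Ago2-IP miR-106b replicate 2 (51879 counts), was 66.9-fold above the lowest, Ago2-IP control replicate 2 (805 counts; 95% interval 62.4 to 71.8, counting error only). This span rested on the lowest library, and without it the spread was 23.3-fold. The group mean was highest in Ago2-IP miR-106b at 8717 ± 5687 CPM, with polyA miR-106b next at 3994 ± 3017, Ago2-IP control at 3640 ± 5059 and polyA control lowest at 2734 ± 452 (SD, n = 4 each). No neighbours in this order differed by more than their spread. The range within a group was 1.39-fold for control and 11.3-fold for miR-106b in polyA RNA, and 49.7-fold for control and 10.1-fold for miR-106b in Ago2-IP RNA. The wide ranges narrowed when single libraries were left out, in an alternative chosen after seeing the data. In polyA miR-106b the range was 3.03-fold without replicate 1, in Ago2-IP control 7.34-fold without replicate 2 and 7.33-fold without replicate 4, and in Ago2-IP miR-106b 1.95-fold without replicate 4. The level was steadiest in polyA control.

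**Figure D2:**
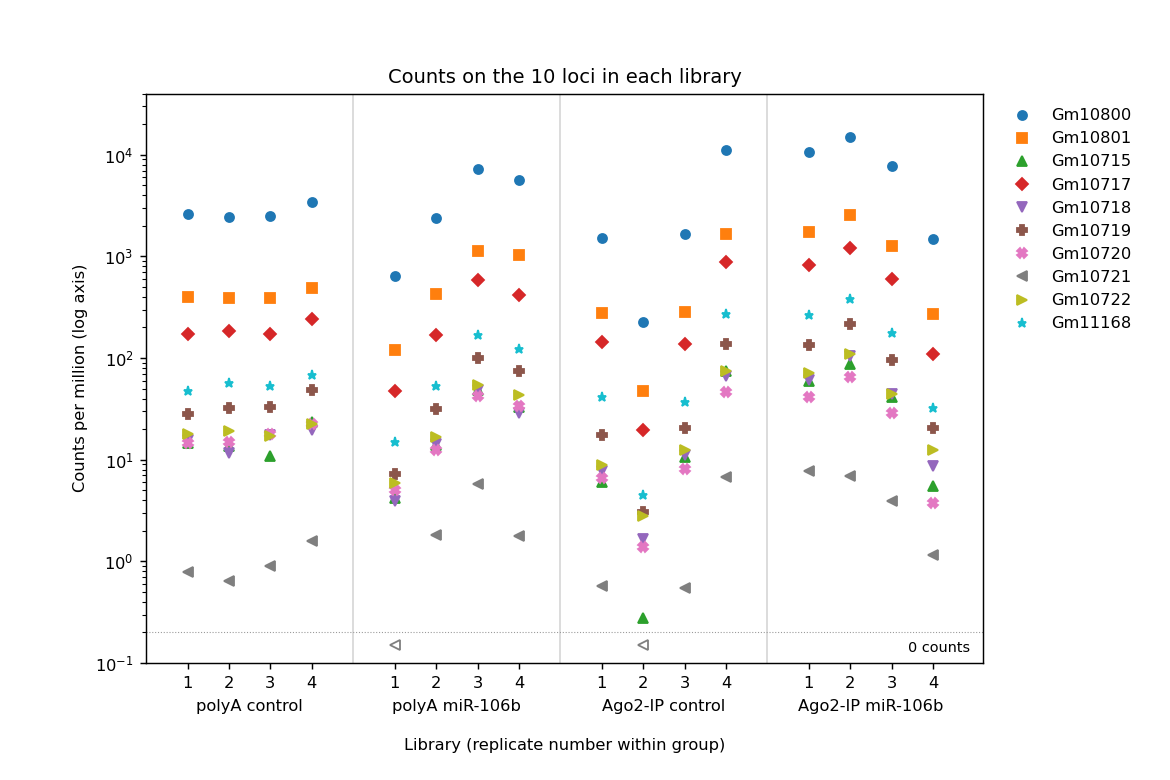
CPM of the 10 loci (symbols) in each of the 16 libraries, on a log axis, with open symbols in the lower strip for libraries with 0 counts. The loci move together over libraries: all are low in Ago2-IP control replicate 2 and all are high in Ago2-IP control replicate 4 and in Ago2-IP miR-106b replicates 1 to 3.

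The neighbour of Gm10800 on chromosome 2, Gm10801, followed the same course. It stood at 397, 388, 387 and 488 CPM in polyA control and at 119, 423, 1132 and 1039 CPM in polyA miR-106b. Among Ago2-IP control libraries it stood at 281, 47.8, 282 and 1669 CPM, and in Ago2-IP miR-106b at 1739, 2583, 1278 and 273 CPM. As for Gm10800, control replicate 4 was with the high miR-106b libraries and miR-106b replicate 4 with the low control libraries.

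Gm10717, the most abundant locus of the chromosome 9 array, stood at 172, 187, 174 and 240 CPM in polyA control and at 47.9, 169, 581 and 415 CPM in polyA miR-106b. Among Ago2-IP control libraries it stood at 144, 19.5, 137 and 883 CPM, and in Ago2-IP miR-106b at 831, 1215, 601 and 110 CPM. Within Ago2-IP miR-106b the order of the libraries was the same as for both chromosome 2 loci. Gm11168 stood at 47.3, 56.6, 53.5 and 68.5 CPM in polyA control and at 14.9, 53.0, 169 and 121 CPM in polyA miR-106b. Among Ago2-IP control libraries it stood at 41.7, 4.47, 37.3 and 269 CPM, and in Ago2-IP miR-106b at 268, 383, 177 and 32.6 CPM.

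The other 6 loci of the array were lower. Gm10719 ranged from 3.07 to 217 CPM over the 16 libraries, Gm10722 from 2.79 to 111 CPM, Gm10718 from 1.68 to 105 CPM and Gm10720 from 1.40 to 65.8 CPM. Gm10715 had 1 count in Ago2-IP control replicate 2 and 302 counts (87.5 CPM) in Ago2-IP miR-106b replicate 2. Gm10721 was the scarcest, with 153 counts in all. It had 0 counts in polyA miR-106b replicate 1 and in Ago2-IP control replicate 2, which allows up to 0.659 and 0.838 CPM, and its highest value was 7.75 CPM in Ago2-IP miR-106b replicate 1. The 2 libraries in which it was not detected were the 2 in which Gm10800 was lowest.

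Between libraries, the highest level was 54.1-fold above the lowest for Gm10801, 62.1-fold for Gm10717, 62.4-fold for Gm10718, 70.8-fold for Gm10719, 47.1-fold for Gm10720, 39.6-fold for Gm10722 and 85.8-fold for Gm11168. The lowest library of each of these was Ago2-IP control replicate 2, where counts were 5 to 171. Against the 50-fold that chose Gm10800, Gm10801 at 54.1-fold was just above and Gm10720 at 47.1-fold just below. For Gm10715, 302 counts against 1 left a wide counting interval, and for Gm10721 the highest level was at least 11.8-fold higher than a floor of 3 counts in the library at 0.

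Per kilobase of exon, which takes out the length of a locus but not the sharing of reads among near-identical copies, Gm10800 had the highest level in polyA control, 4143 ± 685 CPM per kilobase (SD, n = 4), followed by Gm10801 at 824 ± 96.7. The array on chromosome 9 was lower, at 50.1 ± 8.32 for Gm10717, 29.8 ± 4.71 for Gm11168, 29.4 ± 3.46 for Gm10722, 26.1 ± 5.24 for Gm10720, 23.61 ± 5.004 for Gm10718, 19.8 ± 4.89 for Gm10719 and 16.7 ± 5.87 for Gm10715. Gm10721 stood at 1.46 ± 0.623. From Gm11168 to Gm10715, neighbours in this order differed by less than their spread. The pair on chromosome 2 thus stood above the 8 loci of the array. The array loci share more of their windows with other genes, but Gm10720, with the largest share (88.3%), was not the lowest. Another annotated gene also covered 41.1% of the exon bases of Gm10721, 32.0% of Gm10715, 22.8% of Gm10718, 12.4% of Gm11168 and 12.1% of Gm10719. It was 0% for Gm10800, Gm10801, Gm10717, Gm10720 and Gm10722. The part of either kind of sharing in these levels was not tested.

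Set against Gm10800 in the same library, the more abundant loci varied little and the scarce ones more. Gm10801 had 14.3% to 21.2% of the Gm10800 count over the 16 libraries, Gm10717 6.56% to 9.44%, Gm11168 1.81% to 2.74% and Gm10719 1.09% to 1.45%. These ratios moved by 1.33- to 1.52-fold while the levels themselves moved by 54.1- to 85.8-fold. With fewer counts behind each value, the ratio moved by 1.58-fold for Gm10718 (0.472% to 0.745%), 2.16-fold for Gm10722 (0.575% to 1.24%), 3.07-fold for Gm10720 (0.255% to 0.782%) and 5.57-fold for Gm10715 (0.124%, from 1 count, to 0.692%). Gm10721 went from 0% to 0.0787%. Gm10720, chosen here after its values were seen, had a lower share in Ago2-IP than in polyA RNA: its median share was 0.635% (control) and 0.589% (miR-106b) in polyA RNA, against 0.462% (control) and 0.380% (miR-106b) in Ago2-IP RNA. Gm10720 is also the locus with the largest part of its windows, 88.3%, in another gene. No test was made of these ratios, since Gm10800 was chosen for its values in the same libraries.

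**Figure D3:**
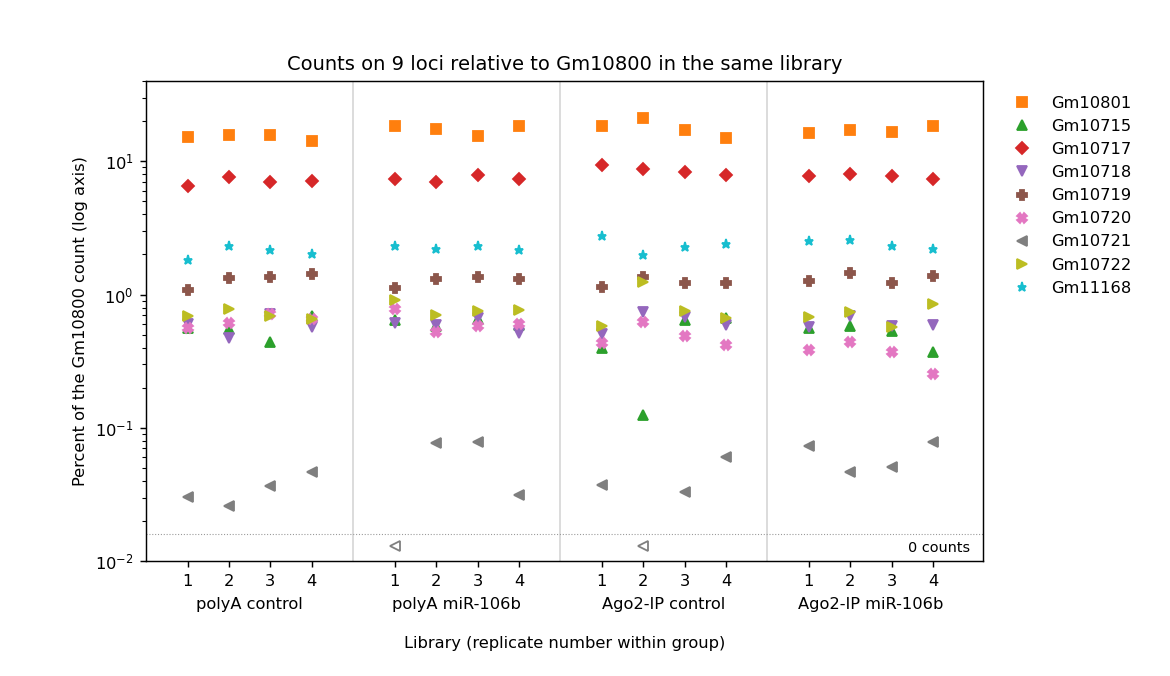
Counts on each of 9 loci as a percent of the Gm10800 count in the same library, on a log axis, with open symbols in the lower strip for 0 counts. Gm10801, Gm10717, Gm11168 and Gm10719 lie in level bands (1.33- to 1.52-fold from lowest to highest), and Gm10715 falls out of its band in Ago2-IP control replicate 2, where it had 1 count.

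Together the 10 loci held from 0.0306% of all counts (95% exact binomial interval 0.0288% to 0.0324%) in Ago2-IP control replicate 2 to 1.98% (1.966% to 1.996%) in Ago2-IP miR-106b replicate 2. The intervals cover counting error only and are far narrower than the differences between cultures. In polyA RNA the median share was 0.326% for control and 0.528% for miR-106b. In Ago2-IP RNA it was 0.210% for control and 1.19% for miR-106b. Set beside all 14897 genes, the SD of log2 CPM within groups was 1.58 for Gm10800, the 21st largest, against a median of 0.27. Among the 2009 genes that averaged 100 CPM or more, Gm11168 ranked 1st, Gm10800 2nd, Gm10717 4th and Gm10801 7th by this SD. The gene ranked 3rd was Gm26870, a long noncoding RNA annotated across the same array on the opposite strand. Of 11653 genes with more than 3 counts in every library, 24, Gm10800 among them, spanned at least as wide a fold between the highest and lowest library.

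The study asked which RNAs change in abundance with miR-106b. In polyA RNA the fitted log2 fold change of miR-106b against control was above 0 for all 10 loci, from 0.40 to 1.24, with a median of 0.64 against -0.05 over all genes. The standard errors were 0.52 to 0.72, against a median of 0.19 over all genes. Gm10800 was chosen for its spread, and the other 9 loci followed it with r of 0.941 to 0.999. Wide errors, and with them few calls, are thus in part set by that choice, here and in the comparisons below. The value for Gm10800 was 0.56 (SE 0.60). For Gm10801 the value was 0.72 (SE 0.57, adjusted p = 0.355), for Gm10717 0.66 (SE 0.61, adjusted p = 0.431), for Gm11168 0.66 (SE 0.58, adjusted p = 0.403) and for Gm10721 1.24 (SE 0.72, adjusted p = 0.191), by edgeR's quasi-likelihood test with Benjamini-Hochberg adjustment over all genes. None of the 9 loci tested passed the threshold of 0.05 by edgeR, with 0 at an unadjusted p under 0.05 and 0 by DESeq2 and by edgeR's likelihood ratio test, while 40.5% of all genes passed. This rested on a single library: without polyA miR-106b replicate 1, in which every locus was at its lowest within polyA RNA, 8 of the 9 passed as higher, where 23.5% of all genes did, with Gm10801 at 1.14 (SE 0.27, adjusted p = 0.00845) and Gm10720 at 0.84 the one that did not. Without polyA miR-106b replicate 3, by contrast, the values fell to between -0.06 for Gm10718 and 0.40 for Gm10801. Gm10721, among the 8 that passed without replicate 1, met the filter on low counts only through the miR-106b groups. Its call as higher is in part set by the filter.

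In Ago2-IP RNA the log2 fold change of miR-106b against control ran from 0.99 for Gm10715 to 1.36 for Gm10801, with a median of 1.22 against 0.00 over all genes. The standard errors were 1.03 to 1.25, against a median of 0.19, and the adjusted p of the 9 loci tested was 0.937 to 0.958. None of the 9 passed by edgeR (0 at an unadjusted p under 0.05, and 0 by DESeq2 and by the likelihood ratio test), in a comparison in which edgeR called 0% of all genes, DESeq2 called 2 genes and the likelihood ratio test 4. By edgeR, 827 of all 14897 genes had an unadjusted p under 0.05. Without Ago2-IP control replicate 4, the log2 fold change of Gm10800 was 2.95 in place of 1.25, and Gm10721 passed with 3.59 (SE 0.68, edgeR adjusted p = 0.0104), where 0.0336% of all genes passed as higher. Gm10721 met the filter on low counts only through the miR-106b groups, so its call in this direction is in part set by the filter. Without Ago2-IP miR-106b replicate 2 the values were lower, at 0.85 for Gm10800, 0.50 for Gm10715 and 0.52 for Gm10720.

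No locus passed between the kinds of RNA either. In control cells the log2 fold change of Ago2-IP against polyA was 0.23 for Gm10720 to 1.46 for Gm10721, with adjusted p of 0.216 to 0.827, and 0 of the 9 loci tested passed by edgeR, DESeq2 or the likelihood ratio test (0 at an unadjusted p under 0.05) where 69.7% of all genes did. This direction too was set by 1 library: without Ago2-IP control replicate 4 all 10 values were below 0, from -1.37 for Gm10720 to -0.63 for Gm10717, and Gm10800 was at -0.96. With miR-106b the values were 0.77 for Gm10720 to 1.44 for Gm11168, with adjusted p of 0.232 to 0.498, and again 0 of 9 passed by any of these tests (0 at an unadjusted p under 0.05) where 46.4% of all genes did. Here every value stayed above 0 whichever library was left out.

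The change of the Ago2:polyA ratio with miR-106b is the measure that the study used to find RNAs drawn into RISC. For the loci it was -0.20 (Gm10721) to 0.65 (Gm10719) on the log2 scale, with standard errors of 1.22 to 1.42 and adjusted p of 0.759 to 0.930. It too moved with single libraries: without Ago2-IP control replicate 4 it was 1.99 for Gm10717 to 2.40 for Gm10719, with Gm10800 at 2.25, and without Ago2-IP miR-106b replicate 2 Gm10800 was at 0.16 and Gm10715 at -0.25. None of the 9 tested passed by edgeR, DESeq2 or the likelihood ratio test, 0 had an unadjusted p under 0.05, and 27.3% of all genes passed. Since libraries enter more than 1 of the 5 comparisons, these are not independent of each other.

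**Figure D4:**
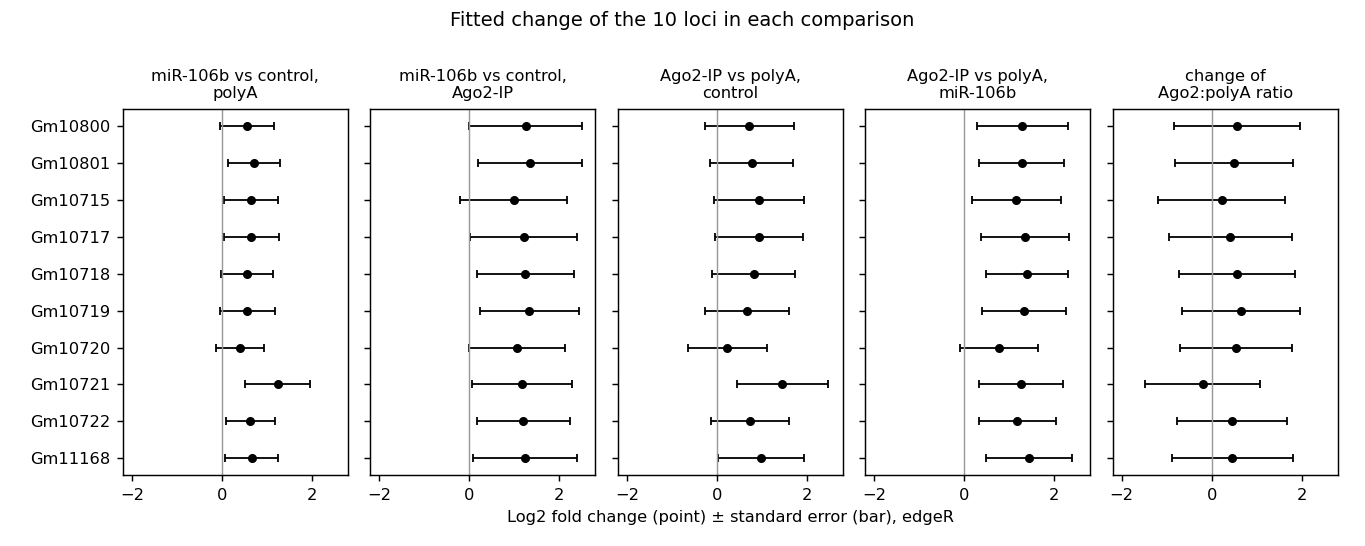
Fitted log2 fold change of the 10 loci in each of the 5 comparisons, with bars for the standard error from edgeR. The values lie above 0 except for Gm10721 in the change of the Ago2:polyA ratio (-0.20), and the bars, 0.52 to 1.42 long on each side, are several times the median standard error of all genes (0.19 to 0.27). The loci share the spread for which Gm10800 was chosen, so the length of the bars is in part set by that choice.

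Of 141767 annotated transcripts, those of 3 other genes shared windows of 50 bases with the 10 loci. Gm26870 (chromosome 9, 3000282 to 3038313, minus strand) shared 65.4% of its windows, Gm17535 (chromosome 9, 3034599 to 3035805) 85.7%, and Gm21738 (chromosome 14, 19415857 to 19418930) 32.0%. The libraries were not strand-specific, so reads of Gm26870 and of the loci on the other strand cannot be told apart where they overlap, and 54.6% of its exon bases lay in another gene. All 3 were among the 10 genes, other than the loci themselves, whose libraries followed Gm10800 most closely. The measure was Pearson's r, over 16 libraries, of log2 CPM after the mean of each group was taken off, and it is given as a description because the libraries share their depth and composition across genes. It was 0.998 for Gm26870, 0.985 for Gm21738 and 0.956 for Gm17535, and 0.941 to 0.999 for the 9 other loci, against a median of 0.04 over all genes.

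The other 7 genes of the 10 shared no window with the loci. They were Tigit (r = 0.963), an inhibitory receptor of T cells and natural killer cells, RP24-496C22.3 (0.958), RP23-342M4.6 (0.940), 2300009A05Rik (0.935), Gm31258 (0.934), 2810429I04Rik (0.926) and Gm16551 (0.923). They were scarce, with means of 2.27 CPM for Gm16551 to 11.7 CPM for RP23-342M4.6, and Tigit went from 0 to 16.2 CPM. At the other end were Galnt4 (r = -0.856), an enzyme that starts O-linked sugar chains on proteins, and Gm10925 (r = -0.838), a pseudogene. In all, 26 of the 14897 genes (0.175%) had an r of at least 0.9, Gm10800 and the 9 other loci included.

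The genes beside the loci that share no sequence with them were hardly counted. Of the 5 other annotated genes within 100 kb, 2 were Gm26870 and Gm17535. The remaining 3, 4930433N12Rik and mmu-mir-101c beside the chromosome 9 array and Gm13806 beside the chromosome 2 pair, had 1, 0 and 1 counts over all 16 libraries, against 300664 on Gm10800.

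Factors that act on pericentric heterochromatin were described from a list of genes, of which 23 were tested. Whether the reads counted on the loci come from such chromatin was not tested. In polyA RNA with miR-106b, 1 was higher and 11 lower, with a median log2 fold change of -0.48 against -0.05 over all genes, where 19.0% of all genes were called higher and 21.5% lower. Brca1, a DNA repair protein that also acts at satellite repeats, fell from 19.3 ± 4.16 to 5.30 ± 4.16 CPM (SD, n = 4 each; log2 fold change -1.86, SE 0.36, edgeR adjusted p = 0.00172). Hells, a chromatin remodeller needed for DNA methylation of repeats, fell from 18.0 ± 3.11 to 5.03 ± 3.49 CPM (-1.80, SE 0.32, edgeR adjusted p = 0.00111). Uhrf1, which brings the maintenance DNA methyltransferase to replicating DNA, fell from 117.03 ± 21.04 to 35.2 ± 19.1 CPM (-1.72, SE 0.32, edgeR adjusted p = 0.00225). Dnmt3a, a DNA methyltransferase that sets new marks, was the one that rose, from 78.7 ± 7.59 to 114 ± 8.35 CPM (0.56, SE 0.11, edgeR adjusted p = 0.00227).

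Of 22 centromere protein genes tested, 0 were higher and 15 lower in polyA RNA with miR-106b (19.0% and 21.5% of all genes). Their median log2 fold change was -1.22. The largest falls were those of Sgol1, which protects the joint between sister chromatids (5.35 ± 0.744 to 1.63 ± 0.804 CPM), Cenpi (4.89 ± 0.995 to 1.53 ± 1.53 CPM) and Cenpn (13.7 ± 2.30 to 4.34 ± 2.70 CPM), the last 2 being parts of the inner kinetochore. The sizes depended on single libraries: without polyA miR-106b replicate 3 the log2 fold change was -2.67 for Cenpi (-1.71 with all libraries) and -2.46 for Brca1, and without replicate 1 of that group it was -1.27 for Cenpi and -1.51 for Brca1. In the same comparison, the median of summed markers of other cells went from 26569 to 63119 CPM for heart muscle, from 223 to 543 CPM for endothelium, from 56.4 to 135 CPM for blood and, the other way, from 15.2 to 7.10 CPM for kidney epithelium. Mitochondrial genes took 0.84% to 0.94% of counts in polyA control and 1.11% to 1.75% in polyA miR-106b. The part of these markers and of the mitochondrial share in the changes of both lists was not tested. In Ago2-IP RNA, 0 genes of either list passed by edgeR, which called 0% of all genes there. In both lists 0 had an unadjusted p under 0.05 by edgeR, against 827 of all 14897 genes. For the change of the Ago2:polyA ratio, 5 genes were higher and 1 lower in each list, where 7.62% of all genes were called higher and 19.7% lower. A list drawn up for loci where reads of ribosomal RNA can collect had 4 genes tested: Gm26917, Rn18s-rs5, Lars2, a mitochondrial leucyl-tRNA synthetase gene, and Gm26870, which by its sequence and levels belongs with the satellite-like loci. Of these, 0 passed in polyA RNA by edgeR (0 at an unadjusted p under 0.05), where 40.5% of all genes did. Of 7 nuclear long RNAs 1 passed there, the imprinted Meg3, which rose from 39.4 ± 9.17 to 84.5 ± 22.8 CPM.

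Other measures of the libraries were set beside the satellite-like loci. Olfactory and vomeronasal receptor genes, most of which are used in sensory neurons of the nose, were summed over 1797 genes, of which 7 passed the filter on low counts and 770 had 0 counts in every library. Some of these receptors are also used in the kidney, so the sum is not a pure measure of background. They stood at 34.6, 40.8, 44.9 and 44.1 CPM in polyA control and at 17.8, 27.8, 80.7 and 55.8 CPM in polyA miR-106b. Among Ago2-IP control libraries they stood at 70.0, 16.2, 60.3 and 65.6 CPM, and in Ago2-IP miR-106b at 164, 172, 121 and 43.9 CPM. The lowest and the highest library were those of Gm10800, but the order between them differed: Ago2-IP control replicate 4, at 65.6 CPM, was level with replicates 1 and 3 of its group, and those 2 were above every polyA control library, in which Gm10800 was higher. With 58 to 595 counts per library, this sum was small.

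Malat1, an abundant RNA of nuclear speckles, stood at 1530, 1516, 1745 and 3462 CPM in Ago2-IP control and at 3356, 3373, 2098 and 1589 CPM in Ago2-IP miR-106b, so that the 3 highest libraries were among the 4 highest of Gm10800. In polyA RNA it stood at 2023 to 2156 CPM in control and 1355, 2008, 2443 and 1551 CPM with miR-106b. Neat1, the scaffold RNA of another nuclear body, the paraspeckle, did not follow in Ago2-IP RNA, where it stood at 1131 to 1222 CPM in all 8 Ago2-IP libraries. In polyA RNA Neat1 stood at 941, 943, 946 and 1067 CPM in control and 571, 1176, 1237 and 875 CPM with miR-106b. There its highest library in both groups, and its lowest with miR-106b, were those of Gm10800. The number of genes with a count also differed between libraries. It was 18615, 17408, 18526 and 19814 in Ago2-IP control, and 19397, 21090, 19313 and 18100 in Ago2-IP miR-106b. In both groups the lowest and highest library were those of Gm10800. In polyA miR-106b it was lowest in replicate 1 (18310) and highest in replicate 3 (20477), as for Gm10800, while in polyA control it was highest in replicate 2 (22518), the library with the most counts and the lowest Gm10800 of that group. Over 16 libraries r with Gm10800 was 0.820 for Malat1 and 0.400 for Neat1. The part of background RNA or DNA, of nuclear RNA and of the number of genes counted in the levels of the loci was not tested.

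**Figure D5:**
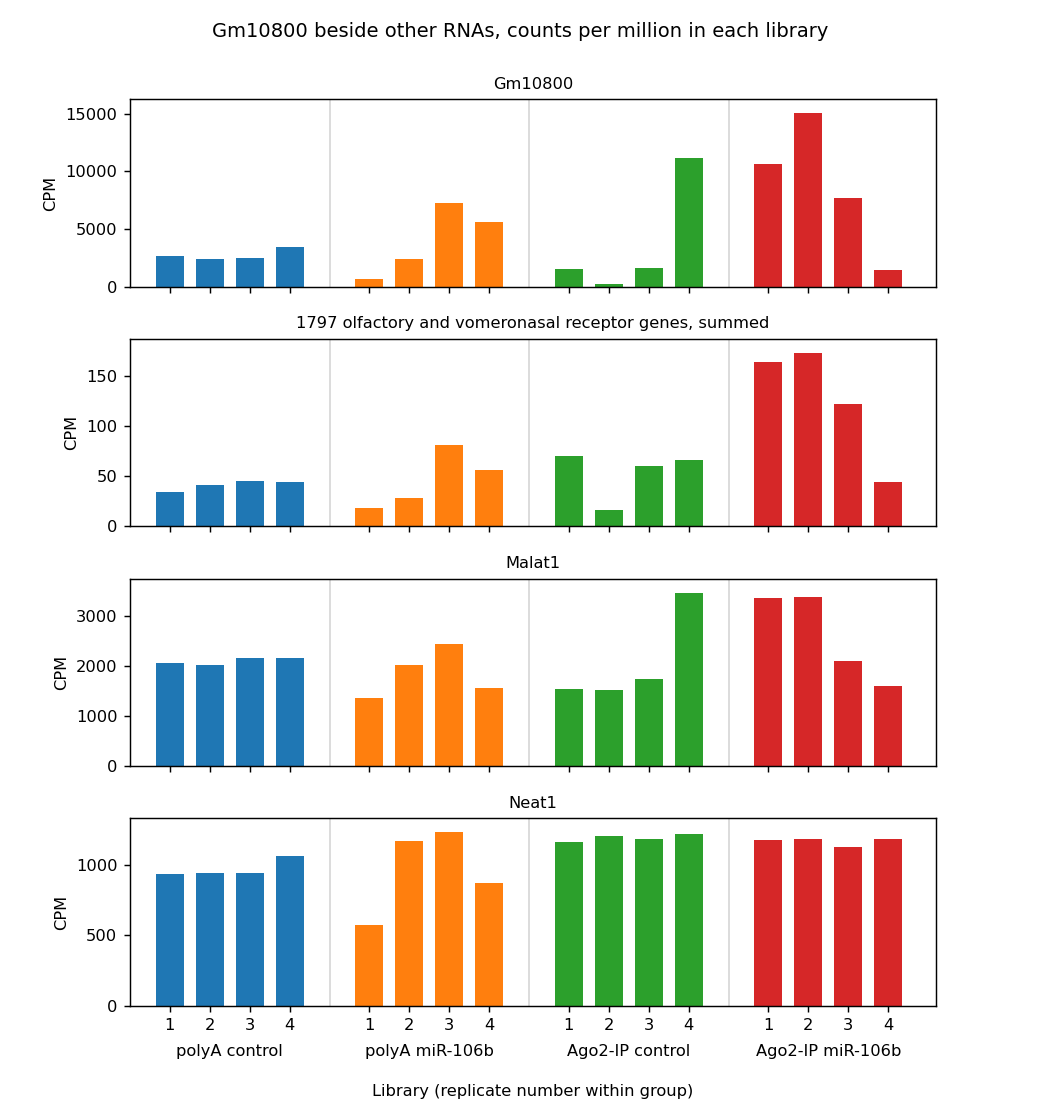
CPM in each library of Gm10800, of 1797 receptor genes summed, of Malat1 and of Neat1, with bars from 0 coloured by group. Malat1 is high (3356 to 3462 CPM) in 3 of the 4 Ago2-IP libraries in which Gm10800 is high but not in the other, miR-106b replicate 3 (2098 CPM), the receptor sum is also highest in Ago2-IP miR-106b replicates 1 to 3 (121 to 172 CPM) but not high in Ago2-IP control replicate 4 (65.6 CPM), and Neat1 is level in Ago2-IP RNA (1131 to 1222 CPM).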

How the data were processed

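Fragmented RNA was sequenced as single-end reads of 50 bases without strand. Per the study's methods, reads of ribosomal RNA were first taken out by the authors, who aligned what remained to GRCm38 with Tophat2 (version 2.1.1 in the methods, 2.0.10 in the submitters' processing notes) and counted reads per gene with HTSeq 0.9.1. The deposited table holds raw counts, with no normalization, for 46078 genes in 16 libraries; 197 genes have a blank name and were kept under their identifier. CPM were counts scaled to a library total of 1000000. Genes with at least 1 CPM in 3 of 4 libraries of any group were fitted with edgeR 4.0.16 (TMM, robust quasi-likelihood test, Benjamini-Hochberg over all genes, threshold 0.05), within polyA or Ago2-IP libraries for miR-106b against control and over all 16 for the rest. The fit was tested on counts simulated with the same low spread for all genes, so that test does not bear on loci that vary widely. The members and lists were chosen with earlier results of these data known. Named genes were all members, neighbours within 100 kb, the 10 genes most like Gm10800 and the 2 least like it, and up to 3 list genes a direction with the largest change past the threshold in polyA RNA. Cultures were separate; same-numbered libraries were not taken as pairs. Positions and sequences came from GENCODE M21, on the build of the files, and 10 of 10 loci matched by identifier. Alternatives were other scalings, filters and tests (DESeq2 1.42.0), a replicate block and leaving out each library.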

Additional observations from a re-analysis of the deposited data

Results flagged for a closer look

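In groups of 4 libraries, a library was set apart where its gap to the next was a large part of the group's whole range (Dixon's 95% limit). Gm10800 and the summed share of the loci were left out, since the spread of Gm10800 was used to choose it. The other loci followed Gm10800 with r of 0.941 to 0.999, so their values are neither independent of that choice nor of each other. Chance sets a library apart in about 1 of 20 groups, and 15 of 60 groups of values were set apart here, which for these reasons is a description only. Of these, 12 were in Ago2-IP control replicate 4, which was high for Gm10801 (1669 CPM), Gm10717 (883 CPM), Gm11168 (269 CPM), Gm10719 (137 CPM), Gm10715 (74.9 CPM), Gm10722 (74.5 CPM), Gm10718 (66.5 CPM), Gm10720 (46.6 CPM) and Gm10721 (6.72 CPM). In the same library Gm26870 (617 CPM), Gm17535 (8.45 CPM) and Malat1 (3462 CPM) were also high. In polyA control, replicate 4 was high for Gm10801 (488 CPM) and Neat1 (1067 CPM). In Ago2-IP miR-106b, replicate 3 was low for Neat1 (1131 CPM).

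For 5 of the 8 list genes named, the change of the Ago2:polyA ratio with miR-106b passed the threshold (edgeR's quasi-likelihood test, Benjamini-Hochberg adjusted). The log2 change was 2.77 for Sgol1, 2.18 for Hells, 1.67 for Uhrf1, -0.64 for Dnmt3a and -1.24 for Meg3. Sgol1 was hardly counted in Ago2-IP RNA, at 0 to 0.286 CPM in control and 0 to 0.8695 CPM with miR-106b. The ratio change of Sgol1 thus rested on few Ago2-IP counts. Hells was low there too, at 0.571 to 2.16 CPM in control and 1.29 to 3.88 CPM with miR-106b. The 8 were chosen for a large change in polyA RNA, which this ratio subtracts, so a change of the opposite sign is in part set by the choice and is no independent result.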

How the results depend on the processing

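At 2579086 to 9459585 counts a library, counting error mattered for the scarce loci, Gm10721 and Gm10715 above all; for the others 4 cultures a group with wide spread set the limit. Under other scalings, filters and tests, the number of loci past the threshold stayed at 0 in all 5 comparisons. Leaving out 1 library moved it between 0 and 8 in polyA RNA and between 0 and 1 in Ago2-IP RNA, and moved the spread of Gm10800 between 23.3-fold (without Ago2-IP control replicate 2) and 66.9-fold, with 49.7-fold without Ago2-IP miR-106b replicate 2. The 1 in Ago2-IP RNA was Gm10721, also among the 8 in polyA RNA, which met the filter on low counts only through the miR-106b groups. Without Gm10800 in the sum, the median share of the loci over the 16 libraries was 0.0730% in place of 0.326%. The cause of the changes in calls was not tested.

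In control cells, Ago2-IP against polyA changed direction when Ago2-IP control replicate 4 was left out. The log2 fold change ran from -0.71 to 1.16 for Gm10801, -1.14 to 1.33 for Gm10715, -0.63 to 1.32 for Gm10717, -0.90 to 1.19 for Gm10718, -1.06 to 1.05 for Gm10719, -1.37 to 0.60 for Gm10720, -0.98 to 1.84 for Gm10721, -0.93 to 1.09 for Gm10722 and -0.70 to 1.37 for Gm11168, and that of Gm10720 was -0.080 with library size only. The change of the Ago2:polyA ratio ran from -0.25 to 2.30 for Gm10715, -0.010 to 1.99 for Gm10717, -0.056 to 2.11 for Gm10722 and -0.68 to 2.24 for Gm10721. It kept its direction for Gm10719 (0.15 to 2.40), Gm10800 (0.16 to 2.25), Gm10801 (0.077 to 1.99), Gm10718 (0.025 to 2.29), Gm11168 (0.013 to 2.15) and Gm10720 (0.0016 to 2.14). In polyA RNA, miR-106b against control ran from -0.057 to 1.02 for Gm10718 and -0.051 to 0.84 for Gm10720.

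The replicate block left 0 loci past the threshold in every comparison. Under the block, Gm10720 was -0.015 for Ago2-IP against polyA in control, and Gm10721 was 0.23 for the change of the ratio. Same-numbered libraries deviated together with correlations of -0.39 to 0.22 over 24 pairs, where more than 0.1 in every pair would have been needed, so the numbers were not read as pairs.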
